A study of Mus musculus with 8 samples.

Results

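The nuclear-encoded genes of oxidative phosphorylation were examined in primary cultured mouse microglia with and without IgG. They were chosen by symbol, as protein-coding genes named for a subunit of NADH dehydrogenase (Nduf), succinate dehydrogenase (Sdh), the cytochrome bc1 complex (Uqcr, Cyc1), cytochrome c oxidase (Cox5 to Cox8) or ATP synthase (Atp5), without the assembly factors. The rule found 84 of the 55385 genes in the table. By complex, 35 belonged to complex I, 4 to complex II, 9 to complex III, 18 to complex IV and 18 to complex V, with Ndufa4 and Ndufa4l2 placed in complex IV. They lay on 19 chromosomes. The rule used no measured value.

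Microglia were from neocortex and hippocampus of newborn wild-type mice. The brains were pooled in flasks, and the microglia were shaken off after 12 days and kept in new plates for 3 days. IgG was then given at 10 µg/ml for 24 h at DIV15 in 4 cultures, and 4 cultures of the same 4 dates were controls, which the labels call untreated and the methods describe as given PBS. The 2 libraries of each date therefore form a pair, numbered 1 to 4, and p-values measure the spread between these 4 pairs of pooled cultures.

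Oxidative phosphorylation is the last step of respiration in the inner mitochondrial membrane. Complexes I and II pass electrons from NADH and succinate to ubiquinone, complexes III and IV pass them on to cytochrome c and oxygen, and complex V makes ATP with the proton gradient that results. Complex II is built of nuclear-encoded subunits alone, while the other complexes also hold subunits encoded in mitochondrial DNA. Microglia, the resident macrophages of the brain, use oxidative phosphorylation at rest and can shift toward glycolysis when activated.

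Library totals ran from 21287816 to 23703216 counts, at which 3 counts correspond to 0.127 to 0.141 CPM before any adjustment. CPM are counts scaled to a common library total, and all other CPM here were adjusted by the trimmed mean of M-values (TMM). The summed level of 10 microglial markers was 7631 to 8594 CPM in controls and 8746 to 9243 CPM with IgG, although Tmem119 and P2ry12, 2 defining markers, averaged 5.08 and 6.97 CPM in controls. Of the other cell types, markers of the oligodendrocyte lineage reached 1186 to 1808 CPM in controls and 1017 to 1699 CPM with IgG, and markers of astrocytes reached 171 to 196 CPM and 149 to 191 CPM. Markers of neurons, fibroblasts, endothelial cells and border-associated macrophages summed to at most 106 CPM per list in any library. IgG 1 and IgG 3 stood apart from the other libraries. Genes of chromosome M took 4.85% and 5.59% of their counts, against 2.21% in IgG 2, 1.97% in IgG 4 and 2.32% to 2.41% in controls, and their TMM factors were 0.913 and 0.927, against 0.992 to 1.04 in the other libraries.

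Of the 84 genes, 79 passed the filter on low counts and were tested. No member passed an adjusted p of 0.05 in either direction in the paired quasi-likelihood test of edgeR, whereas 0.393% of the 17537 genes tested did. The smallest adjusted p among the members was 0.479, for Sdhb. At an unadjusted p under 0.05, Sdhb and Ndufv2 were higher with IgG, 2 of 79 against a background of 6.35%, and 0 members were lower, against 3.85%. Without the pairing, 4 members were higher and 0 lower at an unadjusted p under 0.05, against 4.83% and 2.18% of all genes in that fit, and the smallest adjusted p was 0.692. DESeq2 and limma-voom also called 0 members after adjustment. Single pairs decided the unadjusted counts. Without pair 4, 33 members were lower and 1 higher, in a fit where 11.3% of all genes were lower and 12.1% higher. Without pair 1, 0 members were higher or lower, against 3.04% and 1.4% of all genes, and without pair 3 again 0, against 2.75% and 1.5%. Without pairs 1 and 3 together, 11 members were higher and 0 lower, against 3.89% and 4.34% of all genes. The difference between these shares was not tested. The median log2 fold change was -0.035 over the members, with 29 above and 50 below zero, and -0.005 over all genes tested.

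The pairs differed far more than this median shows. The median log2 change of the members, IgG minus the control of the same pair, was -0.22 in pair 1, -0.016 in pair 2, -0.31 in pair 3 and 0.37 in pair 4, while over all genes it was 0.013, 0.002, 0.016 and 0.001. In pair 1, 57 of 79 members were lower, in pair 3 it was 59, and in pair 4 it was 2. A total of 55 members, 69.6%, were lower in pairs 1 and 3 and higher in pair 4, a pattern that 23.8% of all genes had and that was picked out after the values were seen. Members of 1 library share its depth, scaling and RNA, so this count describes 4 pairs and not 79 replicates.

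**Figure D1:**
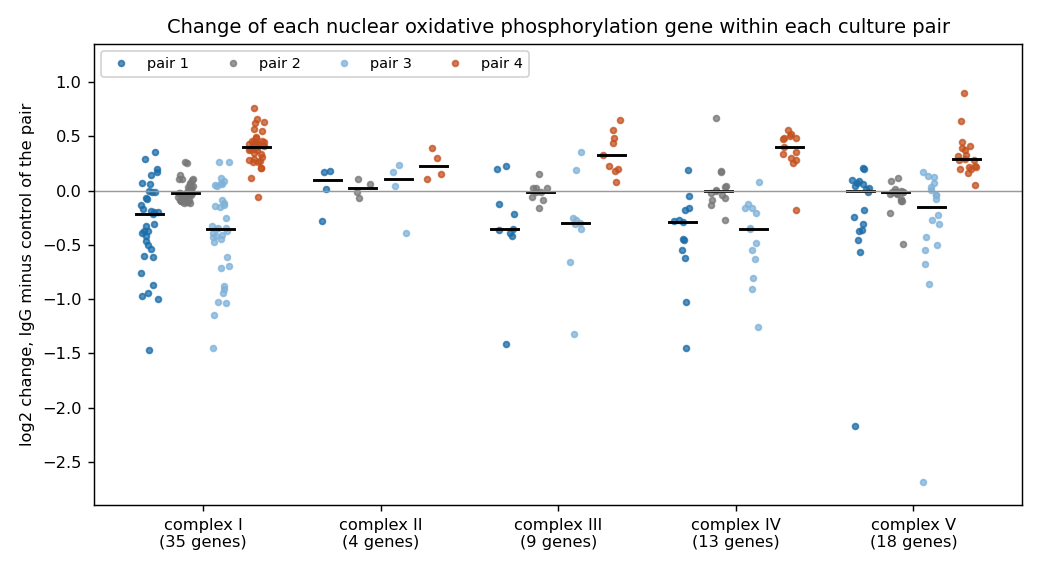
Each point is a tested member, placed by complex on the x axis and by its log2 change between IgG and control of one culture pair on the y axis, with black bars for the median. Pair 4 lies mostly above 0, with a median of 0.40 in complex I, while in pairs 1 and 3 many members lie below it and Atp5k reaches -2.16 and -2.69.

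The spread between libraries was wider with IgG. The standard deviation of log2 CPM had a median of 0.0638 over the members in controls and 0.309 with IgG, and 77 of 79 members, 97.5%, varied more with IgG, as did 80.4% of all protein-coding genes tested. For all genes of at least 10 CPM the medians were 0.0822 and 0.214. Summed over the members, the level was 5667, 5870, 5891 and 5740 CPM in controls 1 to 4 and 5266, 5839, 5268 and 7215 CPM in IgG 1 to 4. IgG 2 lay among the controls, IgG 1 and 3 below them and IgG 4 above them.

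Coding sequences from GENCODE M21 on GRCm38 are shown for Atp5k, Uqcr11 and Ndufa1, short messages with wide changes within pairs, and for Uqcr10, a short message with smaller ones, with the start and stop codons in capitals. Uqcr11 and Uqcr10 are subunits of the same complex with messages of like length and unlike changes. Atp5k (ENSMUSG00000050856, chr5:108433244-108434448, minus strand, 4 exons, coding length 216 nt of 371), Uqcr11 (ENSMUSG00000020163, chr10:80402997-80406830, minus strand, 3 exons, 171 of 445), Uqcr10 (ENSMUSG00000059534, chr11:4701973-4704342, minus strand, 2 exons, 195 of 434) and Ndufa1 (ENSMUSG00000016427, chrX:37187588-37191163, minus strand, 3 exons, 213 of 419) read as follows.
Atp5k: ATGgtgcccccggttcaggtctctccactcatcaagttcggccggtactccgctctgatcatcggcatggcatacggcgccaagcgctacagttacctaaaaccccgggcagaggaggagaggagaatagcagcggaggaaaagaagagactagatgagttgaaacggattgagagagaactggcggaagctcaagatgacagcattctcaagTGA
Uqcr11: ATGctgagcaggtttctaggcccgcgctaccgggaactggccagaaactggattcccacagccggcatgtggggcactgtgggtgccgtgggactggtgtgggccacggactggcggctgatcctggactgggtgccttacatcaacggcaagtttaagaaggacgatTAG
Uqcr10: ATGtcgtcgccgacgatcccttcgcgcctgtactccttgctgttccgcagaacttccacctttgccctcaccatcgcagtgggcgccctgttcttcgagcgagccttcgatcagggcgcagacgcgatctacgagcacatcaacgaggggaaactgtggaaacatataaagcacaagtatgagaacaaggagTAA
Ndufa1: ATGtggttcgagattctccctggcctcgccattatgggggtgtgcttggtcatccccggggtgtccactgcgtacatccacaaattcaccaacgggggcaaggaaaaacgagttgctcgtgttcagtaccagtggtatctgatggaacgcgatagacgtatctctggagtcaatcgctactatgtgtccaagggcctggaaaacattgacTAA

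Complex I oxidises NADH. Its 7 nuclear-encoded core subunits, which carry the flavin and the iron-sulphur clusters, differed little between the group means: 6 of 7 had a log2 fold change above 0, from -0.02 for Ndufv1 to 0.22 for Ndufv2, and none passed adjustment. Of the 28 accessory subunits, 22 had a log2 fold change below 0, with a median of -0.096 against 0.060 for the core. By pair, the median log2 change of the accessory subunits was -0.37, -0.028, -0.41 and 0.43 in pairs 1 to 4. That of the core was 0.073, 0.008, 0.073 and 0.27, so the order was reversed in pair 4. This grouping was made after the values were seen and is a description. The median transcript was 1623 nt in the core and 748 nt in the accessory subunits. Among the 9 accessory subunits longer than 1000 nt, 5 were below 0, with a median of -0.02.

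Ndufa3, an accessory subunit, was measured at 28.2, 32.9, 33.4 and 27.2 CPM in controls 1 to 4 and at 10.2, 33.6, 12.2 and 46.2 CPM in IgG 1 to 4. The IgG libraries lay on both sides of the controls, and its log2 fold change of -0.51 ± 0.36 (SE) had an adjusted p of 0.627 in edgeR and turned to 0.40 without pairs 1 and 3. Ndufa2, the accessory subunit with the highest level per length in complex I, was at 60.5, 59.5, 63.2 and 52.5 CPM in controls and at 31.4, 58.0, 31.0 and 81.6 CPM with IgG. Ndufa1, whose sequence is given above, was at 26.8, 34.2, 31.7 and 30.6 CPM in controls and at 13.6, 31.8, 16.4 and 48.4 CPM with IgG. In all 3 genes IgG 1 and 3 lay below every control, IgG 2 close to the controls and IgG 4 above them.

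Ndufv2, which holds an iron-sulphur cluster next to the NADH site, was at 43.4, 43.3, 44.2 and 41.9 CPM in controls and at 49.7, 44.6, 53.1 and 54.6 CPM with IgG. The groups did not overlap, and its log2 fold change was 0.22 ± 0.094 (SE), with an unadjusted p of 0.0455 and an adjusted p of 0.484 in edgeR. Ndufa10, another accessory subunit, was at 49.96, 47.0, 48.8 and 53.4 CPM in controls and at 61.0, 50.7, 58.6 and 57.9 CPM with IgG. It was higher in each of the 4 pairs, although IgG 2 lay within the range of the controls. Ndufs1, the largest core subunit, averaged 72.8 ± 2.81 CPM in controls and 75.1 ± 3.55 CPM with IgG (SD, n = 4), and Ndufv1, which binds NADH and the flavin, averaged 47.0 ± 2.05 and 47.0 ± 9.72 CPM. For Ndufv1 the means coincided while the spread was larger with IgG.

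Complex II, succinate dehydrogenase, also takes part in the tricarboxylic acid cycle, and was the complex with the smallest excursions. Its median log2 change was 0.094, 0.024, 0.11 and 0.22 in pairs 1 to 4, so no pair had a median below 0. Its median transcript was also the longest, 2065.5 nt against 645 to 1363 nt in the other complexes. The 7 members above 2000 nt, from several complexes, had like medians of 0.17, -0.014, 0.085 and 0.22. The part of length in this was not tested. Sdhb, the iron-sulphur subunit, was at 103, 96.1, 103 and 92.3 CPM in controls and at 117, 104, 116 and 121 CPM with IgG. All IgG libraries lay above all controls, with a log2 fold change of 0.21 ± 0.089 (SE), an unadjusted p of 0.0433 and an adjusted p of 0.479 in edgeR. Sdhc, a membrane anchor, was at 86.8, 90.4, 86.7 and 86.2 CPM in controls and at 98.0, 89.7, 102 and 106 CPM with IgG, so that IgG 2 lay among the controls. Sdha, the flavoprotein that oxidises succinate, was at 197, 190, 195 and 198 CPM in controls and at 199, 198, 201 and 213 CPM with IgG. Its groups did not overlap, by a margin smaller than the rounding of these values, and the log2 fold change was 0.055 ± 0.082 (SE), with an adjusted p of 0.817 in edgeR. Sdhd, the other membrane anchor, was at 78.8, 85.8, 82.2 and 83.2 CPM in controls and at 64.7, 81.6, 62.7 and 92.2 CPM with IgG. Alone in complex II, Sdhd was lower in pairs 1 and 3 and higher in pair 4. Groups that did not overlap were found for 3 members in all, Ndufv2, Sdha and Sdhb, or 3 of 79 against 4.17% of all genes.

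Complex III passes electrons from ubiquinol to cytochrome c. Uqcr11, a small accessory subunit, was at 40.4, 40.1, 37.9 and 34.8 CPM in controls and at 15.2, 40.7, 15.2 and 54.7 CPM with IgG, a log2 fold change of -0.50 ± 0.33 (SE) with an adjusted p of 0.61 in edgeR, that turned to 0.34 without pairs 1 and 3. Uqcr10, another small subunit, was at 45.2, 47.6, 47.2 and 42.8 CPM in controls and at 35.0, 45.7, 39.7 and 63.3 CPM with IgG. In pair 1 the log2 change was -1.41 for Uqcr11 and -0.37 for Uqcr10, and in pair 3 it was -1.32 and -0.25. Their transcripts have 445 and 434 nt. Uqcrh, the acidic hinge protein of the complex, averaged 77.7 ± 5.09 CPM in controls and 70.7 ± 23.9 CPM with IgG (SD, n = 4), again with IgG 1 and 3 below all controls and IgG 4 above them.

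Uqcrc1 and Uqcrc2 are the large core proteins of complex III that face the matrix. Uqcrc1 was at 136, 134, 136 and 144 CPM in controls and at 156, 136, 155 and 168 CPM with IgG. It was higher in each of the 4 pairs, with IgG 2 among the controls, and its log2 fold change was 0.16 ± 0.086 (SE), with an adjusted p of 0.556 in edgeR. Uqcrc2 was at 78.9, 77.0, 79.05 and 78.6 CPM in controls and at 92.2, 76.3, 101 and 83.1 CPM with IgG, highest in IgG 1 and 3. The catalytic members Cyc1, cytochrome c1, and Uqcrfs1, the Rieske iron-sulphur protein, had log2 fold changes of -0.081 ± 0.106 and -0.076 ± 0.1 (SE).

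**Figure D2:**
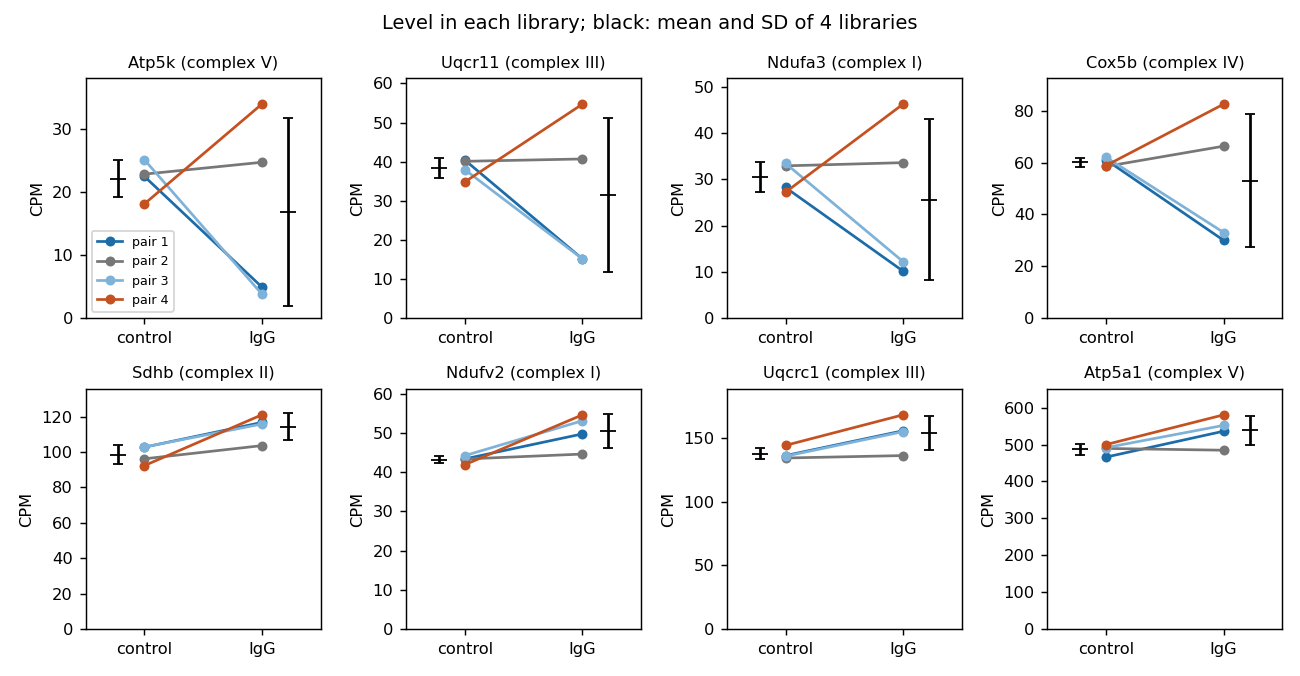
Level in CPM on the y axis for each control and IgG library of 8 members, with a line for each culture pair and black bars for the mean and SD of 4 libraries. In the upper row IgG 1 and 3 lie below all controls and IgG 4 above them, while in the lower row the pairs move together within a narrow range, as for Sdhb at 92.3 to 121 CPM.

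Complex IV, cytochrome c oxidase, reduces oxygen. Of its 13 tested members, 11 were lower in pairs 1 and 3 and higher in pair 4, the largest share of the 5 complexes. Among all genes, 23.8% had this pattern. Complex IV also had the shortest median transcript of the 5, 645 nt, and the part of length in its share was not tested. Cox5b, a subunit of the matrix side, was at 61.1, 58.6, 62.1 and 58.9 CPM in controls and at 30.02, 66.4, 33.0 and 82.6 CPM with IgG, a log2 fold change of -0.31 ± 0.25 (SE) with an adjusted p of 0.664 in edgeR, that turned to 0.34 without pairs 1 and 3. Controls stayed within 4 CPM of each other, and the IgG libraries were spread over both sides. Cox7a2l was at 123, 121, 124 and 127 CPM in controls and at 140, 125, 132 and 156 CPM with IgG. It was higher in each of the 4 pairs, with IgG 2 among the controls.

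Several subunits of complex IV exist as isoforms of different tissues, and in these cultures the widely expressed isoform was the higher one in each set. Cox6a1 averaged 160 ± 2.91 CPM in controls and 164 ± 45.1 CPM with IgG, against 1.55 ± 0.508 and 1.62 ± 0.242 CPM for Cox6a2, the form of heart and skeletal muscle (SD, n = 4), or 284 against 2.33 CPM per kb of transcript over all libraries. Cox7a2 averaged 49.0 ± 2.81 and 51.3 ± 11.3 CPM, against 0.819 ± 0.235 and 0.467 ± 0.276 CPM for the muscle form Cox7a1, or 76.1 against 1.64 CPM per kb. Cox7a1 was the only member lower in all 4 pairs, 1 of 79 against 8.47% of all genes, with a log2 fold change of -0.85 ± 0.38 (SE), an unadjusted p of 0.0532 and an adjusted p of 0.497 in edgeR. Higher in all 4 pairs were 8 members, against 10.4% of all genes. Cox6b1 averaged 92.1 ± 5.34 and 83.4 ± 35.2 CPM, and its testis form Cox6b2 had 6, 16, 12 and 8 counts in controls and 1, 7, 2 and 9 counts with IgG. Cox8a averaged 154 ± 10.2 and 146 ± 50.4 CPM, while Cox8b had at most 3 counts in any library. Cox7b averaged 59.6 ± 1.44 and 54.9 ± 18.8 CPM, whereas Cox7b2 and Cox8c had 0 counts in every library. Ndufa4 averaged 68.2 ± 2.39 and 66.3 ± 13.4 CPM, against at most 5 counts for Ndufa4l2. These 5 genes, Cox6b2, Cox7b2, Cox8b, Cox8c and Ndufa4l2, were the members not tested. The symbol rule did not take in Cox4i1, which was at 286, 288, 299 and 284 CPM in controls and at 245, 285, 234 and 381 CPM with IgG. Its isoform Cox4i2 stayed at or below 0.434 CPM.

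Complex V is the ATP synthase. Atp5k, subunit e of the membrane part, which helps the enzyme form dimers, had the widest excursion of all members. It was at 22.4, 22.8, 25.1 and 18.1 CPM in controls and at 4.94, 24.7, 3.82 and 33.9 CPM with IgG. The raw counts behind these values were 542, 506, 600 and 420 in controls and 107, 568, 78 and 745 with IgG. The log2 fold change was -0.86 ± 0.57 (SE), with an adjusted p of 0.611 in edgeR. Its sign rested on pairs 1 and 3, since in the remaining pairs alone, a choice made after the values were seen, it was 0.51.

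Of the 5 genes for the head of the ATP synthase, Atp5a1, Atp5b and Atp5c1 varied little between libraries, while Atp5d and Atp5e varied widely with IgG. Atp5b, the catalytic beta subunit, was at 554, 550, 562 and 541 CPM in controls and at 588, 538, 614 and 622 CPM with IgG. Atp5a1, the alpha subunit, was at 466, 490, 492 and 500 CPM in controls and at 536, 485, 552 and 581 CPM with IgG, a log2 fold change of 0.14 ± 0.09 (SE) with an adjusted p of 0.602 in edgeR. Atp5c1, the gamma subunit of the central stalk, averaged 128 ± 3.62 and 140 ± 9.26 CPM (SD, n = 4). For these 3, IgG 2 lay within or just below the range of the controls and IgG 4 was the highest library. Atp5d, the delta subunit, was at 88.4, 94.3, 106 and 101 CPM in controls and at 71.3, 95.2, 72.2 and 132 CPM with IgG. Atp5e, the epsilon subunit, was at 71.9, 81.7, 78.5 and 74.2 CPM in controls and at 52.5, 81.4, 48.9 and 116 CPM with IgG. In both, IgG 1 and 3 lay below all controls and IgG 4 above them. With total counts in place of TMM, a scaling that moved the median of all genes to -0.105, the log2 fold change of Atp5b turned from 0.096 to -0.004, that of Sdha from 0.055 to -0.045 and that of Ndufs1 from 0.044 to -0.056.

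Subunit c, the ring that turns with the proton flow, is encoded by 3 genes with the same mature protein. In the end of their coding sequences, the stretch that encodes the mature protein, nucleotide identity was 85.1% between Atp5g1 and Atp5g2, 79.8% between Atp5g1 and Atp5g3 and 78.5% between Atp5g2 and Atp5g3, and the longest identical run was 21 bases. Atp5g2 averaged 121 ± 4.36 CPM in controls and 122 ± 27.4 CPM with IgG, Atp5g3 108 ± 3.97 and 91.0 ± 30.4 CPM, and Atp5g1 41.0 ± 5.70 and 39.3 ± 13.6 CPM (SD, n = 4). Atp5g3 was at 70.6, 102, 62.4 and 128 CPM in IgG 1 to 4, and its log2 fold change of -0.30 ± 0.18 (SE) had an adjusted p of 0.572 in edgeR and turned to 0.10 without pairs 1 and 3. Atpif1, the inhibitor of the ATP synthase and not a member, was at 86.4, 100.0, 95.2 and 90.4 CPM in controls and at 66.6, 86.0, 70.5 and 113 CPM with IgG. Atp5s, a factor that couples the parts of the enzyme, was low at 2.80 ± 0.545 and 2.57 ± 0.208 CPM. Atp5o stood in the table as 2 overlapping entries, the gene and a readthrough, with nearly the same counts. The same reads may have been counted in both, which was not tested.

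Per kb of reference transcript, the members were high. Their median level was 64.1 CPM per kb, against 7.16 over all protein-coding genes tested. Among tested members, the highest of each complex were Ndufa2 with 95.7 ± 29.3, Sdhb with 93.2 ± 9.04, Uqcrh with 136 ± 30.1, Cox6a1 with 284 ± 51.9 and Atp5b with 298 ± 17.2 CPM per kb, and the lowest were Ndufb2 with 4.61 ± 0.885, Sdhc with 29.4 ± 2.45, Uqcrc2 with 43.9 ± 4.69, Cox7a1 with 1.64 ± 0.771 and Atp5s with 1.68 ± 0.252 CPM per kb (SD, n = 8). Cox6a1 and Atp5b did not differ beyond their spread. Ndufb2 and Atp5g1 have reference transcripts of 4371 and 4715 nt for coding lengths of 318 and 411 nt, so their level per length depends on the transcript chosen.

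**Figure D3:**
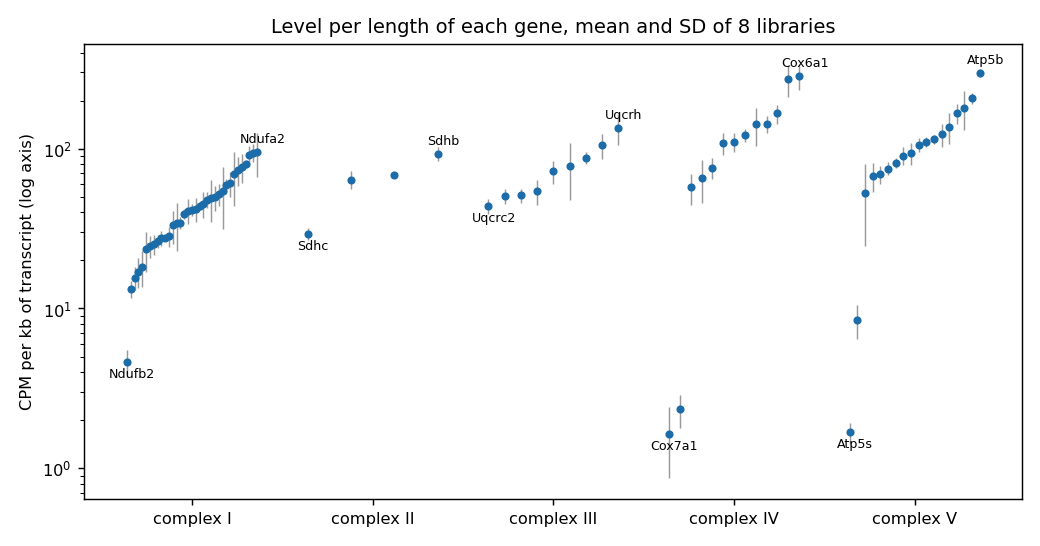
Mean level in CPM per kb of reference transcript, on a log axis, for each tested member by complex, with bars for the SD of 8 libraries. Most members lie between 10 and 300 CPM per kb, and Cox7a1 and Atp5s lie below 2.

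Transcript length went with the change in 3 of the 4 pairs. Across the 79 members, Spearman's rho between reference transcript length and log2 change was 0.55, 0.079, 0.58 and -0.52 in pairs 1 to 4, and over 13596 protein-coding genes it was 0.27, -0.037, 0.30 and -0.53. Other gene features also went with the change. For the members, rho was 0.61, 0.14, 0.64 and -0.58 with coding length and 0.63, 0.10, 0.60 and -0.55 with exon number. With GC content it was -0.18, 0.14, -0.14 and 0.23 for the members and -0.46, -0.022, -0.46 and 0.39 over the protein-coding genes. These are correlations across genes of the same libraries and carry no test. In pairs 1 and 3 short members tended to be the lower ones, and in pair 4 the higher ones, with exceptions such as Cox7a1 of 393 nt, the lowest member of pair 4 at -0.18. The 6 members of at most 450 nt had median log2 changes of -1.19, -0.032, -1.10 and 0.65, while 89 protein-coding genes of that length had -0.24, -0.003, -0.16 and 0.17. At 10 CPM or more, 37 protein-coding genes of that length had -0.13, 0.004, -0.10 and 0.36. The 13 members above 450 and up to 600 nt had -0.29, -0.016, -0.43 and 0.45. For 127 protein-coding genes of that length the medians were -0.37, 0.005, -0.48 and 0.36. Up to 1000 nt, the next 27 members had -0.33, -0.025, -0.35 and 0.40, against -0.22, 0.003, -0.28 and 0.30 for 665 genes. Up to 2000 nt, the next 26 members had 0.019, -0.012, -0.059 and 0.28, against -0.11, 0.006, -0.13 and 0.18 for 2761 genes. In pairs 1 and 3, members up to 2000 nt thus lay below genes of like length in some classes and above them in others. The 7 members above 2000 nt had 0.17, -0.014, 0.085 and 0.22. In pair 4, 6 of these 7 were above 0, Ndufs1 being at -0.059, and all protein-coding genes of that length had a median of -0.078. With a correction for length and GC content in the paired fit, the median log2 fold change of the members was -0.010, the log2 fold change of Atp5k was -0.80 and that of Sdhb 0.26. Again 0 members passed adjustment, with a smallest adjusted p of 0.176 in edgeR. The part of transcript length and of the share of chromosome M in these changes was not tested.

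**Figure D4:**
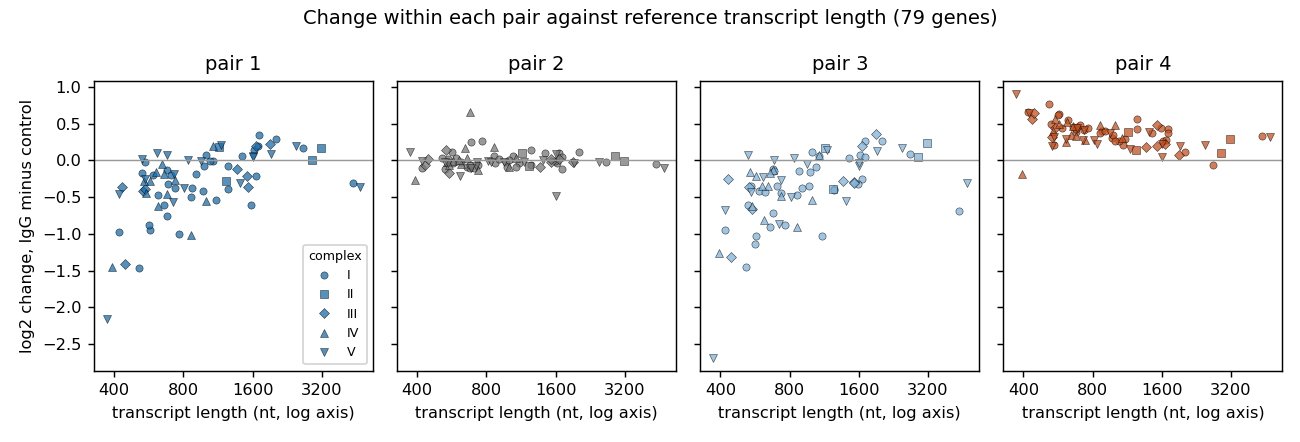
Log2 change between IgG and control against reference transcript length in nt, on a log axis, 1 panel per culture pair, with 1 symbol per complex. No trend with length is seen in pair 2, with a rho of 0.079, short members tend to lie low in pairs 1 and 3, with a rho of 0.55 and 0.58, and short members tend to lie high in pair 4, with a rho of -0.52 and Cox7a1 as an exception at -0.18.

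Changes of the members in pair 1 and pair 3 ranked alike, with a Spearman's rho of 0.89 across the 79 members, and ran against those of pair 4, with a rho of -0.60 and -0.56. Over the 13596 protein-coding genes the values were 0.71, -0.23 and -0.24. At 10 CPM or more they were 0.90, -0.66 and -0.61 for 76 members and 0.88, -0.36 and -0.36 for 8981 protein-coding genes. Each pair has a control of its own, but genes are not independent replicates. By complex, 27 of 35 tested members of complex I, 1 of 4 of complex II, 7 of 9 of complex III, 11 of 13 of complex IV and 9 of 18 of complex V were lower in pairs 1 and 3 and higher in pair 4. Among all genes, 23.8% had this pattern. Complex medians of the log2 fold change were -0.035, 0.12, -0.072, -0.060 and -0.011 for complexes I to V. Over the alternatives they ran from -0.21 to 0.19 for complex I, 0.015 to 0.15 for complex II, -0.22 to 0.14 for complex III, -0.18 to 0.24 for complex IV and -0.15 to 0.12 for complex V, so complex II alone kept its sign. Complex II has 4 members and the longest median transcript, and the part of length was not tested.

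The mitochondrially encoded subunits of complexes I, III, IV and V moved against the summed level of the members in IgG 1, 3 and 4. Their 13 genes summed to 21900, 21460, 20970 and 21070 CPM in controls and to 49640, 19930, 56630 and 18340 CPM in IgG 1 to 4. IgG 1 and 3 thus lay far above the controls, where the nuclear-encoded sum was below them, and IgG 4 lay below, where the nuclear-encoded sum was above. IgG 2 also lay below each control. The contrast did not hold alike in each complex: nuclear-encoded members of complex V summed to 2157 and 2162 CPM in IgG 1 and 3, beside 2159 CPM in control 1. All 13 mitochondrially encoded genes were higher in pairs 1 and 3, with median log2 changes of 1.20 and 1.47. In pair 2 all 13 were lower, with a median of -0.15, and in pair 4 it was 10, with a median of -0.24. Over the 4 pairs all 13 had a log2 fold change above 0, with a median of 0.54, and 3 of them, mt-Co2, mt-Co3 and mt-Nd3, had an unadjusted p under 0.05, where 6.35% of all genes were higher, while 0 passed adjustment in edgeR. Scaling without these genes left the median of the nuclear-encoded members at -0.034. In a bulk sample, fewer cells of a type and less RNA per cell cannot be told apart.

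**Figure D5:**
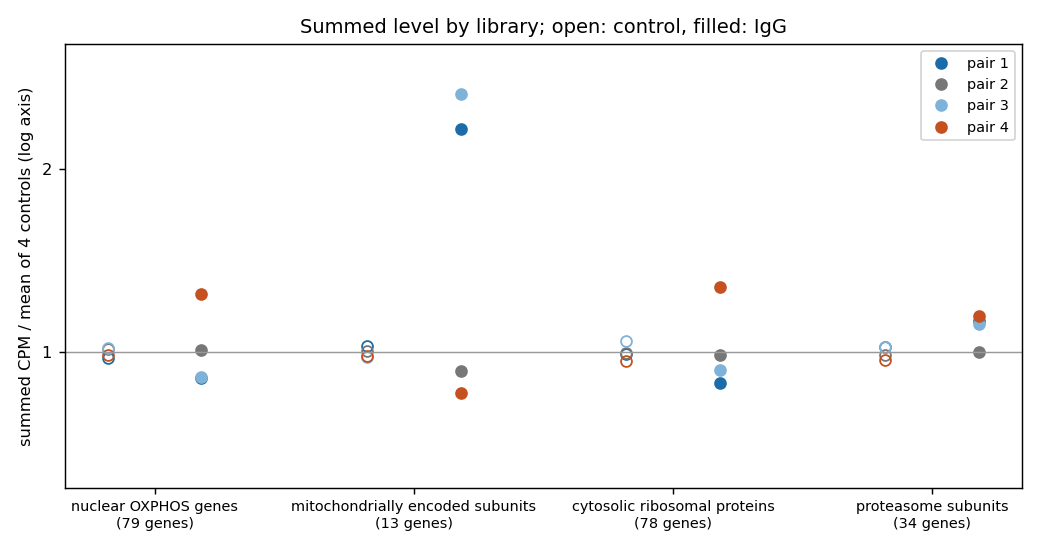
Summed CPM of 4 gene groups in each library, divided by the mean of the 4 controls, on a log axis, with open points for controls and filled points for IgG. Controls lie close to 1, and for mitochondrially encoded subunits IgG 1 and 3 lie above 2, where the nuclear-encoded members lie below 1 in the same libraries.

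As in the members, the medians of both lists of ribosomal proteins were below 0 in pairs 1 and 3 and highest in pair 4. Cytosolic ribosomal proteins had median log2 changes of -0.19, -0.005, -0.22 and 0.39 in pairs 1 to 4, and 56 of 78 were lower in pairs 1 and 3 and higher in pair 4. Mitochondrial ribosomal proteins, which translate the mitochondrially encoded subunits, had medians of -0.14, 0.031, -0.22 and 0.28, and 50 of 78 had the pattern. In proteasome subunits 6 of 34 had it, and the median log2 fold change was 0.13. None of these 3 lists had a gene past an adjusted p of 0.05 in edgeR, and at an unadjusted p under 0.05 they had 7 of 78, 5 of 78 and 4 of 34 genes higher and 0 lower, where 6.35% of all genes were higher and 3.85% lower. The differences between these lists and the members were not tested.

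Factors that assemble or regulate the complexes did not pass adjustment either. Of 46 tested assembly factors, 21 had a log2 fold change above 0 and 25 below, with a median of -0.014, and 0 had an unadjusted p under 0.05, where 6.35% of all genes were higher and 3.85% lower. The extremes were Pet100, a complex IV assembly factor, with -0.51 ± 0.29, and Coa5, another, with 0.28 ± 0.15 (SE). Coa5 was at 153, 151, 154 and 150 CPM in controls and at 241, 167, 223 and 129 CPM with IgG, the reverse order to that of Cox5b. Of 9 tested regulators of respiratory gene transcription, Esrra, a nuclear receptor that drives many respiratory genes, was at 76.9, 70.6, 75.2 and 69.9 CPM in controls and at 44.6, 69.2, 44.7 and 82.5 CPM with IgG, in the order of the members, with a log2 fold change of -0.33 ± 0.18 (SE) and an adjusted p of 0.554 in edgeR. Hif1a, the oxygen-regulated factor with the highest log2 fold change of the list, 0.18 ± 0.17 (SE) and an adjusted p of 0.701 in edgeR, was at 99.1, 103, 101 and 111 CPM in controls and at 146, 103, 149 and 82.9 CPM with IgG, with IgG 1 and 3 above all controls and IgG 4 below them. Of the 9 regulators, 2, or 22.2%, were lower in pairs 1 and 3 and higher in pair 4, as were 23.8% of all genes. Nrf1 and Gabpa, transcription factors of many respiratory promoters, had log2 fold changes of -0.065 ± 0.101 and -0.11 ± 0.089 (SE). Of 14 genes for transcription and maintenance of mitochondrial DNA, 9 were above 0, and Tfam, which packs this DNA, had a log2 fold change of 0.013 ± 0.102 (SE).

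The promoters of the members were searched because Nrf1 and the ETS factor GABP are known for their sites there. RefSeq promoters on GRCm38.p6 were matched for 68 of the members, and the 250 bases before each start were read on both strands. Bases after the start were not read, so a site of any of the 3 motifs there would be missed. The NRF-1 motif, a palindrome of 10 bases that stands in capitals in the first 4 sequences printed here, was found in 4 of 68, or 5.88%, against 0.781% of 27025 promoters, the ETS motif CCGGAAGT in 3, or 4.41%, against 2.93%, and the YY1 motif AAGATGGC in 0, against 1.59%. The members' promoters had a median GC content of 56.2%, against 52% over all promoters, and the part of this in the motif shares was not tested. The 3 motifs did not overlap in any member, as no promoter held more than 1 of them. The matches are shown with their surroundings, 5′ to 3′ on the strand of the gene, with the motif in capitals, and ACTTCCGG is the ETS motif read on the opposite strand.
Atp5g2, chr15:102671070-102671099, minus strand: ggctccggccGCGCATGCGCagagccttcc
Atp5k, chr5:108434430-108434459, minus strand: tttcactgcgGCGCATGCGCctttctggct
Cox6a1, chr5:115349101-115349130, minus strand: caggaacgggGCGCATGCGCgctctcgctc
Ndufa11, chr17:56717692-56717721, plus strand: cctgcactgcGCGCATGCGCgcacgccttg
Atp5h, chr11:115419940-115419969, minus strand: ccaaggagagaACTTCCGGcaactctcttc
Uqcr11, chr10:80406869-80406898, minus strand: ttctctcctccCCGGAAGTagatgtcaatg
Uqcrh, chr4:116075063-116075092, minus strand: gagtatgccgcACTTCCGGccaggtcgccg

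The NRF-1 matches began 42, 50, 162 and 60 bases before the RefSeq start of Atp5g2, Atp5k, Cox6a1 and Ndufa11, and the ETS matches 39, 66 and 11 bases before that of Atp5h, Uqcr11 and Uqcrh. The distances refer to 1 RefSeq start per gene, which is not always that of GENCODE M21: all 10 bases of the Atp5g2 match, 9 of the Atp5k match and all 8 of the Atp5h match lie inside the GENCODE gene. The 4 genes with an NRF-1 match had log2 fold changes of -0.013, -0.86, -0.001 and -0.034, and so included both the widest excursion and genes with nearly equal means. A match is a description of the sequence and was not tested as a site.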

How the data were processed

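RNA from 4 control and 4 IgG-treated microglial cultures was sequenced as polyA-selected libraries. The deposited values are counts per Ensembl gene. According to the methods and the submitters' processing notes, the authors discarded low-quality reads and those holding adapters or undetermined bases, and aligned the rest to GRCm38, with HISAT2 2.2.1, SAMtools 1.12, Picard 2.26.3 and featureCounts among the tools listed. The annotation, strand use and treatment of multiply aligned reads are not given in the sources used here, so overlapping and antisense genes are uncertain.

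Symbols, coordinates and lengths came from GENCODE M21, in which 55144 of 55385 identifiers were found, with the best-supported principal transcript as reference. Of 96 entries matching the symbol rule, 11 processed pseudogenes and 1 lncRNA were left out. Counts were filtered with filterByExpr, scaled by TMM and fitted in edgeR 4.0.16 (R 4.3.3), whose quasi-likelihood test was run with the pair as a block, and p-values were adjusted by Benjamini-Hochberg over 17537 genes at 0.05. Log2 CPM used a prior count of 2. The test was tried on simulated data first. The members, lists and rules were chosen with earlier results of these data known.

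The labels give same-numbered control and IgG libraries the same date, which pairs them. Their deviations from group means correlated at 0.408, 0.328, 0.256 and 0.315 across 15668 genes, against -0.342 to 0.198 for other numbers. No libraries of a group agreed within sampling noise.

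Members were named by rule, as those past adjustment, the largest rises and falls in each complex, the highest and lowest per kb, isoform groups, catalytic subunits and the extremes of the other lists. Ndufa1, Uqcr10, Atp5d, Atp5e, Atp5o, mt-Co2, mt-Co3, mt-Nd3, the genes with promoter matches and the regulators Nrf1, Gabpa and Tfam were added after their values were seen. Alternatives were no pairing, DESeq2 1.42.0 size factors and Wald test, upper-quartile scaling, total counts, scaling without mitochondrially encoded genes, 2 other filters, limma-voom (limma 3.58.1), the likelihood ratio test, a length and GC correction with a lowess span of 0.3, and leaving out replicates.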

Additional observations from a re-analysis of the deposited data

Results flagged for a closer look

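In 6 of the 96 groups of 4 libraries examined, 1 library stood far from the others by Dixon's criterion, and chance gives about 1 in 20. Sdhc was at 90.4 CPM in control 2, with the next control at 86.8. Cox7a2 was at 53.2 CPM in control 2, with the next at 47.8. Ndufs1 was at 80.4 CPM in IgG 1, with the next IgG library at 73.9. Atp5o was at 76.4 CPM in IgG 4, with the next at 61.0. The summed level of complex II was 532 CPM in IgG 4, with the next at 481, and that of complex V was 2705 CPM in IgG 4, with the next at 2220.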

How the results depend on the processing

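No member passed an adjusted p of 0.05 in either direction under any of the alternatives run, and the smallest adjusted p ranged from 0.066 to 0.9999. At an unadjusted p under 0.05, where 2 members were higher and 0 lower, the counts moved and the cause was not tested. Each count is of 79 members (82 with genes of any count, 78 with the stricter filter) and stands beside the share of all genes called in the same fit. Members higher numbered 4 without the replicate block (all genes, 4.83%), 4 with the length and GC correction (9.62%), 1 with DESeq2 size factors (6.04%), 0 (all genes, 3.28% to 6.51%) with upper-quartile scaling, total counts, either other filter, the DESeq2 Wald test and the likelihood ratio test, and 0 to 9 (2.11% to 14.6%) with 1 replicate or library left out. Members lower numbered 1 with upper-quartile scaling (5.36%), total counts (8.67%) and the likelihood ratio test (5.02%), 2 with the length and GC correction (5.81%), 8 with genes of any count (4.34%), and 0 to 33 (1.3% to 11.3%) with 1 replicate or library left out. The 33 were found without pair 4, with a median log2 fold change of -0.195, where 11.3% of all genes were lower, and 17 without IgG 4 alone in the unpaired fit, where 8.56% were lower. The 9 higher were found without IgG 2, where 7.8% of all genes were higher. The median was 0.022 without pair 1 and 0.050 without pair 3.

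Without pairs 1 and 3 together, chosen after seeing the data and leaving 2 pairs, the median was 0.180, 11 members were higher at an unadjusted p under 0.05, where 3.89% of all genes were, and 48 of the 50 members below 0 turned to above 0, while Ndufs1 alone of the 29 above 0 turned, to -0.040. Of members named in the text, those turned to above 0 were Ndufa3 0.398, Ndufa1 0.28, Ndufa2 0.30, Ndufa11 0.112, Ndufb2 0.148, Ndufv1 0.196, Sdhd 0.039, Uqcr10 0.254, Uqcr11 0.337, Uqcrh 0.138, Cyc1 0.093, Uqcrfs1 0.045, Cox5b 0.335, Cox6a1 0.247, Cox6b1 0.241, Cox7b 0.198, Cox8a 0.25, Ndufa4 0.132, Atp5d 0.202, Atp5e 0.32, Atp5k 0.511, Atp5g1 0.112, Atp5g2 0.198 and Atp5g3 0.101. With total counts, Atp5b turned to -0.004, Atp5o to -0.036, Cox6a2 to -0.004, Sdha to -0.045, Ndufs1 to -0.056 and Cox7a2 to -0.058, and the median of complex II moved to 0.015. Values near 0 also turned without the replicate block (Uqcr10 0.007, Ndufv1 0.001, Atp5g2 0.012, Cox6a1 0.036), with the length and GC correction (Ndufa11 0.047, Uqcr10 0.007, Atp5d 0.007, Ndufs1 -0.010, Ndufv1 0.040, Atp5g2 0.049, Cox6a1 0.095) and with limma-voom (Cox6a1 0.002). With 1 replicate or library left out, members that turned ranged from -0.953 to 0.013 for Ndufa3, -0.138 to 0.089 for Ndufv1, -0.419 to 0.008 for Uqcrh, -0.177 to 0.006 for Uqcrfs1, -0.595 to 0.013 for Cox5b, -0.184 to 0.133 for Cox6a1, -0.090 to 0.291 for Cox6a2, -0.505 to 0.019 for Cox6b1, -0.119 to 0.15 for Cox7a2, -0.410 to 0.005 for Cox7b, -0.393 to 0.047 for Cox8a, -0.183 to 0.046 for Ndufa4, -0.29 to 0.072 for Atp5g1, -0.171 to 0.093 for Atp5g2, -0.682 to 0.064 for Ndufa1, -0.132 to 0.070 for Ndufa11, -0.241 to 0.118 for Uqcr10, -0.297 to 0.038 for Atp5d, -0.394 to 0.121 for Atp5e, -0.022 to 0.176 for Atp5h, -0.022 to 0.105 for Atp5o and -0.214 to 0.019 for Atp5s. Sdhb, Ndufv2, Ndufa10, Sdhc and Uqcrc1 stayed above 0 under each alternative, and Cox7a1 below.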
